A study of Mus musculus with 11 samples.

Results

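The H3K4me3, H3K27me3 and H3K36me3 peaks of activated satellite cells (ASCs) from young mice were compared with each other. Members were chosen by cell state, age and mark as given in the sample labels, which took 3 of the 11 samples of the series and 114033 of the 212879 peaks in its 8 peak lists. Peaks of the 3 lists that shared at least 1 bp, directly or through another peak, were joined, which gave 104897 merged intervals. Each interval was classified by which of the 3 marks it carried.

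Satellite cells (SCs) are the stem cells of skeletal muscle. They rest as quiescent cells (QSCs) beside the fibre and enter the cycle as ASCs when muscle is injured or when they are placed in culture. The cells came from male C57BL/6 mice aged 2 to 3 months. The labels describe the ASCs as QSCs sorted as VCAM+/CD31-/CD45-/Sca1- and then kept for 3 days on extracellular matrix in F10 medium with horse serum, whereas the paper's text describes SCs taken from injured muscle and crosslinked at once. The 2 accounts could not be reconciled here, so "ASC" below means the libraries that carry this label. The young QSCs, sorted by the same markers per the labels, are set beside the ASCs at a few places. Each mark was profiled in 1 ChIP-seq library per cell state, with 5 µg of antibody and 15 cycles of PCR, against an input library of the same state. With no replicate there was no test, and sequencing depth is unknown.

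The 3 marks are written and read by different machineries. H3K4me3 lies at transcription start sites (TSSs) and is kept there by Trithorax-type and SET1-type enzymes, at active genes and also at many silent ones. H3K27me3 is deposited by the PcG complex PRC2 and spreads over silenced developmental genes. H3K36me3 is laid down by SETD2, which travels with elongating RNA polymerase II, so it covers the bodies of transcribed genes, and nucleosomes that carry it are a poor substrate for PRC2. Regions with both H3K4me3 and H3K27me3 are known as bivalent domains. The positions of genes in mm9, the build of the lists, were not used here, so peaks are described by their position relative to each other. For the same reason the state and purity of the ASCs were not checked against marker genes.

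H3K36me3 had the largest list, with 42880 peaks covering 70.0 Mb, and H3K27me3 and H3K4me3 covered nearly equal lengths. The 38307 H3K27me3 peaks covered 48.9 Mb and the 32846 H3K4me3 peaks covered 49.2 Mb. H3K27me3 peaks were the narrowest, with a median width of 866 bp against 1150 bp for H3K4me3 and 1220 bp for H3K36me3. The 90th percentile of width was 2271 bp for H3K27me3, 2883 bp for H3K4me3 and 2903 bp for H3K36me3. A single H3K27me3 peak of 87938 bp on chromosome 8 was the widest of all, and the widest H3K4me3 and H3K36me3 peaks measured 21049 and 34972 bp. The scores are those of the peak caller MACS and are a multiple of the negative log10 of a p-value, from 50 (a p-value of 1e-05) to a cap near 3100. The cap was reached by 31.6% of the H3K4me3 peaks, 3.04% of the H3K27me3 peaks and 0.0373% of the H3K36me3 peaks. Because the score depends on depth, the scores of different lists are not on a common scale, and these shares describe each list by itself. The same limit holds where a single cutoff is applied to all lists or scores of different marks are given for an interval.

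Most of the marked genome of ASCs carried a single mark, but intervals with 1 mark were fewer than in the shifted lists described below. Of the 104897 merged intervals, 92.8% had 1 mark (Wilson 95% interval 92.6% to 92.9%, which like all intervals here covers counting error only). H3K36me3 alone made up 38.1% (39926 intervals), H3K27me3 alone 30.9% (32400) and H3K4me3 alone 23.8% (24990). The 7581 intervals with 2 or 3 marks were 7.23% of the number but 16.2% of the spanned length, as they were wider, with a median of 2510 bp against 1025 bp for those with 1 mark. Each interval with 1 mark was a single peak and the others joined several, so part of this difference follows from the joining. H3K4me3 with H3K27me3 was the most frequent pair, at 4803 intervals or 4.58% (4.45% to 4.71%). H3K4me3 with H3K36me3 followed at 2006 intervals or 1.91% (1.83% to 2.00%). H3K27me3 with H3K36me3 was found at 529 intervals or 0.504% (0.463% to 0.549%), and all 3 marks at 243 intervals or 0.232% (0.204% to 0.263%). These shares depend on the joining and the score. With peaks less than 1 kb apart joined, H3K4me3 with H3K36me3 rose to 4.20% and all 3 marks to 0.558%, and with scores of at least 100 H3K27me3 with H3K36me3 fell to 0.284% and all 3 marks to 0.153%.

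The chance level was taken from circular shifts. The H3K4me3 list was held in place, and the other lists were moved along each chromosome by 100 equally spaced offsets and wrapped at its end, which keeps peak widths and the clustering within each list. Intervals with 1 mark (97316) were 0.927 times the mean of 104970 over the shifts and below the lowest shift, 100782. Those with 2 or 3 marks (7581) were 1.99 times the mean of 3803 and above the highest shift, 5336. The 4803 intervals with H3K4me3 and H3K27me3 were 4.53 times the mean of 1059 over the shifts, and no shift gave more than 1570. The 2006 intervals with H3K4me3 and H3K36me3 were 1.53 times the mean of 1310 and just above the highest shift, 1960. The 529 intervals with H3K27me3 and H3K36me3 were 0.395 times the mean of 1341 and below the lowest shift, 1134. The 243 intervals with all 3 marks were 2.61 times the mean of 93.1 but within the range of the shifts, 59 to 287. The plot of mark combinations shows these ranges. These shifts moved both other lists by different offsets, so they also undid the pairing of H3K4me3 with H3K27me3. Of the 5554 H3K4me3 peaks on H3K27me3, 227 (4.09%) lay on H3K36me3. With H3K36me3 alone moved, the shift mean was 263 (4.74%), so H3K36me3 lay on these peaks no more often than in shifts along whole chromosomes. Shorter shifts were not run for these peaks.

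**Figure D1:**
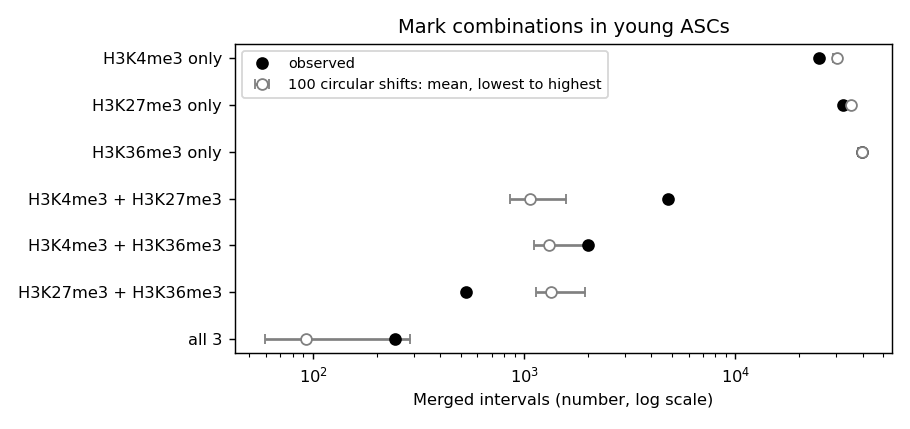
Number of merged intervals (log axis) with each mark combination in young ASCs. Filled points are the observed numbers, open points the mean of 100 circular shifts and bars their lowest to highest value. The pair H3K4me3 and H3K27me3 lies to the right of its bar (4803 against at most 1570), H3K27me3 and H3K36me3 lies to the left of its bar (529 against at least 1134), and all 3 marks lie within it.

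The chance level depended on how far a list was moved, and the marks were dense in the same neighbourhoods. Across 2482 autosomal bins of 1 Mb, the numbers of H3K4me3 and H3K36me3 peaks had a Spearman correlation of 0.87, H3K4me3 and H3K27me3 one of 0.69, and H3K27me3 and H3K36me3 one of 0.60. In the 24729 bins of 100 kb these were 0.61, 0.35 and 0.13. The bins are neighbours on the same chromosomes and the lists share an input library and mappable sequence, so these values describe the lists and carry no p-value. When H3K36me3 was moved by only 10 kb, the number of H3K4me3 peaks on it rose from 2529 in place to 5100. It was 4412.5 at 50 kb, 3889.5 at 100 kb and 2497 at 1 Mb (means of the 2 directions). H3K4me3 on H3K36me3 was thus 1.64 times the mean of shifts along whole chromosomes but 0.650 times the count at a shift of 100 kb, and the direction of this comparison turns with the distance of the shift. For H3K4me3 on H3K27me3 the count was lower at every shift tried beyond 0.5 kb, from 5554 in place to 2690.5 at 5 kb and 2245 at 100 kb, so it stayed 2.47 times the latter. For H3K27me3 on H3K36me3 the count was 815 in place and 485.5 at 2 kb, and it rose to 2930.5 at 100 kb and 3289.5 at 200 kb. The observed number was 0.278 times the count at 100 kb, so the deficit was present against both of these chance levels. It was absent against shifts of 1 to 5 kb, where the observed number was 1.26 to 1.68 times the count.

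**Figure D2:**
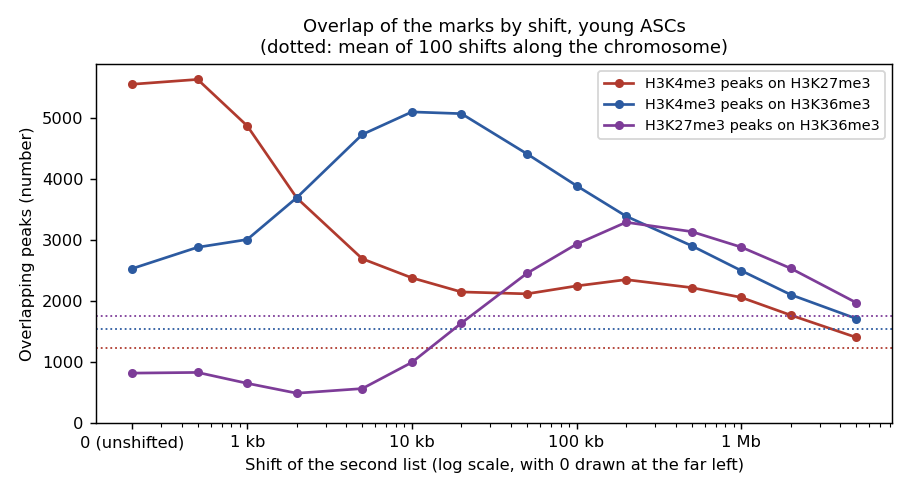
Number of peaks of the first mark that overlap the second mark when the second list is moved by the distance on the x axis (log scale, 0 at the far left, mean of both directions), in young ASCs. The dotted lines give the mean of 100 shifts along whole chromosomes. Overlap of H3K4me3 with H3K27me3 is highest near 0, that of H3K4me3 with H3K36me3 at 10 to 20 kb (5100 and 5071.5 peaks), and that of H3K27me3 with H3K36me3 at 200 kb (3289.5).

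H3K4me3 and H3K27me3, the pair that defines bivalent domains, overlapped at 5554 H3K4me3 peaks (16.9%, 16.5% to 17.3%) and 5307 H3K27me3 peaks (13.9%, 13.5% to 14.2%). The shared sequence came to 6311 kb, 6.28 times the mean of the shifts. H3K4me3 tended to lie inside H3K27me3, since 55.2% of the 5554 peaks were covered over their whole length, whereas 18.3% of the 5307 H3K27me3 peaks lay wholly under H3K4me3. Cover of whole peaks depends on their widths and was not compared with the shifts. The 5554 peaks were of middle width. On H3K27me3 lay 8.48% of the H3K4me3 peaks under 0.5 kb, 25.9% of those from 1 to 2 kb, 10.8% of those from 3 to 5 kb and 8.63% of those from 5 to 10 kb, where the shifts gave 2.65%, 3.77%, 5.76% and 7.75%. The ratio to the shifts was therefore highest, at 6.88, for peaks of 1 to 2 kb and near 1 (1.11) for those of 5 to 10 kb. By score the share was 8.0% for H3K4me3 peaks of 50 to 100, 37.9% for those of 1000 to 3100 and 17.1% for those at the cap.

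Seen from H3K27me3, the overlap followed the width and score of the peak. H3K4me3 was found on 4.49% of the 1070 H3K27me3 peaks under 0.5 kb, 15.5% of the 10279 from 1 to 2 kb, 53.7% of the 1530 from 3 to 5 kb, 72.1% of the 695 from 5 to 10 kb and 94.8% (146) of the 154 of 10 kb or more. Wide peaks also meet other peaks more often when shifted, and the means were then 2.60%, 3.70%, 6.25%, 9.07% and 15.1%. Of the 1166 H3K27me3 peaks at the score cap 96.2% lay on H3K4me3, against 3.89% of the 19740 with a score of 50 to 100, where the shifts gave 2.90%. The weak and narrow H3K27me3 peaks, which are the larger part of the list, were thus mostly away from H3K4me3. The 32400 peaks without another mark measured 826 bp at the median and scored 88.7, and the 5092 with H3K4me3 alone measured 1709 bp and scored 711.7. Width and score rise together, and their separate parts were not tested.

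**Figure D3:**
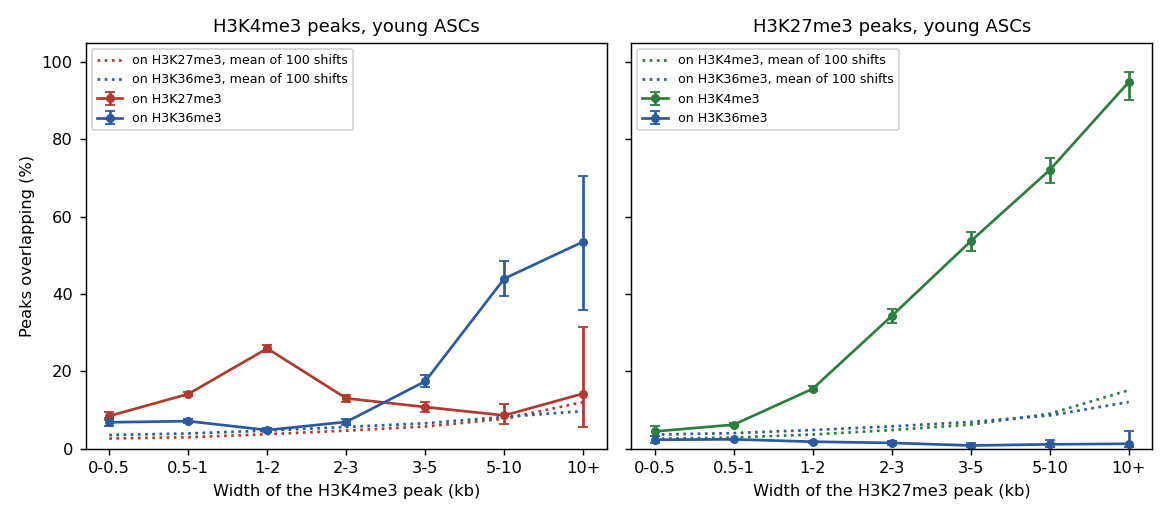
Share of H3K4me3 peaks (left) and H3K27me3 peaks (right) of young ASCs that overlap each of the other marks, by width of the peak in kb. Points are observed shares with Wilson 95% intervals and dotted lines the mean of 100 circular shifts. H3K27me3 peaks overlap H3K4me3 more often the wider they are (4.49% to 94.8%), whereas H3K4me3 overlaps H3K36me3 most often in peaks of 5 kb or more.

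The 3 widest intervals with H3K4me3 and H3K27me3 were single H3K27me3 peaks with several short H3K4me3 peaks inside. The first, chr5:35717455-35751153 (mm9, as are all positions here), was 33.7 kb wide and held 4 H3K4me3 peaks that covered 16.4% of it. The second, chr14:122861933-122891534, was 29.6 kb wide with 4 H3K4me3 peaks over 23.5%, and the third, chr14:63862867-63892228, was 29.4 kb wide with 3 over 10.3%. None of them held an H3K36me3 peak. The QSC lists showed both marks in all 3 regions, with H3K27me3 over 92.0%, 97.8% and 97.7% of their length.

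H3K4me3 and H3K36me3 met at 2529 H3K4me3 peaks (7.70%, 7.42% to 7.99%) and 2410 H3K36me3 peaks (5.62%, 5.41% to 5.84%). The overlap was mostly partial, with a median of 56.6% of the H3K4me3 peak covered and 29.2% of the peaks covered wholly. The share on H3K36me3 was highest in wide H3K4me3 peaks, although most of the overlapping peaks were narrower. It was 6.85% of the 2759 peaks under 0.5 kb (1.93 times the shifts) and 7.14% of the 11687 from 0.5 to 1 kb (1.80 times). Of the 10399 peaks from 1 to 2 kb, 4.84% lay on H3K36me3, near the 4.71% of the shifts. The share was 17.5% (shifts 6.60%) for the 2445 peaks from 3 to 5 kb, 44.0% (39.6% to 48.5%, shifts 8.23%) for the 475 from 5 to 10 kb, and 53.6% (35.8% to 70.5%, shifts 9.75%) for the 28 of 10 kb or more. The ratio to the shifts thus fell to 1.03 for peaks of 1 to 2 kb and was 1.23 at 2 to 3 kb, 2.65 at 3 to 5 kb and 5.35 at 5 to 10 kb. These ratios rest on shifts along whole chromosomes. Against the shifts of 0.5 to 500 kb the ratio for all H3K4me3 peaks was below 1, and such shifts were not run by width. With lists limited to scores of 100 or more, 32.6% of the H3K4me3 peaks of 5 to 10 kb lay on H3K36me3.

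Of the 3 widest intervals of this pair, 2 were a single wide peak of each mark side by side. At chr4:43555010-43577554 (22.5 kb) 1 H3K4me3 peak covered 32.6% and 1 H3K36me3 peak covered 69.4%, so the peaks met over a small part of the interval. At chr8:125371968-125392873 (20.9 kb) the shares were 31.6% and 75.4%. At chr10:80235058-80256711 (21.7 kb) 3 H3K36me3 peaks covered 94.7%, and 4 H3K4me3 peaks with a highest score of 252.4 lay mostly within them. No H3K27me3 peak was found in these 3 intervals in either state. The 3 widest H3K4me3 peaks did not follow this pattern, as none held H3K36me3. They lay at chrX:166426128-166447176 (21.0 kb, with no peak of the 3 marks in QSCs), at chr8:126113080-126129925 (16.8 kb, on H3K27me3 over its whole length) and at chr15:102789746-102804813 (15.1 kb).

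H3K27me3 and H3K36me3, the marks of PcG silencing and of transcribed bodies, overlapped at 815 H3K27me3 peaks (2.13%, 1.99% to 2.28%) and 774 H3K36me3 peaks (1.81%, 1.68% to 1.94%). This was 0.463 times the mean of 1760 over the shifts for H3K27me3 and 0.450 times the mean of 1720 for H3K36me3. Where the marks did meet, the H3K27me3 peak mostly sat within the H3K36me3 peak, and 71.0% (67.8% to 74.1%) of the 815 lay wholly inside. Such nesting depends on the widths of the peaks and was not compared with the shifts. The 774 H3K36me3 peaks were covered by H3K27me3 over a median of 52.2% of their length (quartiles 25.9% and 79.9%). The 600 H3K27me3 peaks with H3K36me3 and no H3K4me3 were narrow and weak, with medians of 763.5 bp in width and 84.1 in score. For all H3K27me3 peaks, the ratio of overlap with H3K36me3 to the shifts fell with width, from 0.636 under 0.5 kb to 0.377 at 1 to 2 kb, 0.122 at 3 to 5 kb and 0.107 (2 peaks of 154) at 10 kb or more. From the other side it rose with the score of H3K36me3. H3K27me3 lay on 0.938% of the 19717 H3K36me3 peaks with a score of 50 to 100, 0.282 times the shifts, but on 18.9% (129) of the 684 with a score of 1000 to 3100, 2.27 times the shifts, and on 11 of the 16 at the cap. Strong H3K36me3 peaks therefore carried H3K27me3 more often than the shifts did, and strong H3K27me3 peaks carried H3K36me3 less often. What sets this asymmetry was not tested.

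The 3 widest intervals with H3K27me3 and H3K36me3 show the nesting, but being chosen by width they had less cover by H3K27me3 than the median of 52.2%. At chr5:116057752-116070769 (13.0 kb) 1 H3K36me3 peak with a score of 1145 covered the whole interval and 1 H3K27me3 peak with a score of 55.1 covered 5.38% of it. At chr12:102175450-102187825 (12.4 kb) and chr19:56408905-56420417 (11.5 kb) the H3K27me3 peaks covered 4.61% and 6.46% and had scores of 58.5 and 62.0, near the lowest score in the list. No QSC peak of H3K27me3 lay in the 3 intervals.

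The 243 intervals with all 3 marks had a median width of 3099 bp and held 315 H3K4me3, 281 H3K27me3 and 257 H3K36me3 peaks. In 199 of them (81.9%, 76.6% to 86.2%) each pair of marks overlapped somewhere in the interval. In the others the marks were chained, with 27 joined through H3K36me3, 11 through H3K4me3 and 6 through H3K27me3. The sequence under all 3 marks came to 173 kb in all, 0.109% of the 159 Mb with any mark. The widest interval, chr8:126060870-126148807 (87.9 kb), was a single H3K27me3 peak with 18 H3K4me3 peaks over 98.6% of its length and 1 H3K36me3 peak over 1.31%. In QSCs the same region held 1 H3K4me3 peak over 99.8% of its length, 1 H3K27me3 peak over 99.9% and 37 H3K36me3 peaks over 84.0%. Near-complete cover by marks that elsewhere form short peaks sets it apart from the other intervals. Its sequence was not examined here, and the second of the widest H3K4me3 peaks above lies inside it. The second, chr15:75999429-76026921 (27.5 kb), held 8 H3K4me3 peaks over 37.3%, 5 H3K27me3 peaks over 38.4% and 2 H3K36me3 peaks over 93.6%. In the third, chr6:29389269-29412142 (22.9 kb), 1 H3K36me3 peak covered the whole interval and the others 3.62% and 3.15%.

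The distances place H3K36me3 near H3K4me3 but seldom on it. From an H3K4me3 peak to the nearest H3K36me3 peak the median distance was 15924 bp, with overlapping peaks counted as 0, against a mean of 208368 bp over the shifts. H3K36me3 lay within 1 kb of 14.3% of the H3K4me3 peaks, within 10 kb of 41.6% (shifts 13.7%) and within 100 kb of 80.2% (shifts 37.5%). In the other direction the median was 11011.5 bp, and 98.7% of the H3K36me3 peaks had H3K4me3 within 100 kb (shifts 59.9%). These shifts, and those for the distances, domains, gaps and neighbours below, ran along whole chromosomes. They therefore also undo the shared density of the marks in the same neighbourhoods. At a shift of 1 Mb the overlap of H3K4me3 with H3K36me3 was still 1.62 times their mean. Shorter shifts were not run for these values, so close placement and shared neighbourhood are not separated.

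Whether an H3K4me3 peak carried H3K27me3 went with its distance to H3K36me3. The 27292 H3K4me3 peaks without H3K27me3 had H3K36me3 on them or within 10 kb in 46.8% (46.2% to 47.4%). Their median distance was 11820 bp, against a mean of 208878 bp over the shifts. The 5554 with H3K27me3 had it in 16% (15.0% to 16.9%), near the 13.8% of the shifts. This total joins parts that differ in direction. H3K36me3 lay within 10 kb of these 5554 peaks on 1 side in 10.4%, above the 6.63% of the shifts. On both sides it lay in 1.42% (shifts 2.42%) and on the peak in 4.09% (shifts 4.74%). The median distance of these peaks was 59557 bp, still shorter than the mean of 206044 bp over the shifts. With a score of at least 100 in each list the shares were 39.2% and 10.5%. Among the peaks without H3K27me3, H3K36me3 lay within 10 kb on 1 side in 27.8%, on both sides in 10.5% and on the peak in 8.43%, where the shifts gave 6.56%, 2.42% and 4.67%. The left and the right side were nearly equal, at 3893 and 3704 peaks.

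H3K27me3 kept away from H3K36me3 at short range and was closer than the shifts at long range. The median distance to the nearest H3K36me3 peak was 89722 bp, against a mean of 201832 bp over the shifts, whose lowest median was 85392 bp. Within 10 kb lay H3K36me3 for 7.84% of the H3K27me3 peaks (shifts 14.0%), and within 100 kb for 53.3% (shifts 38.2%). The curves of observed and shifted distances cross between 10 and 50 kb, where the shares at 50 kb were 33.5% and 28.5%. To the nearest H3K4me3 peak the median was 14110 bp (shifts 59257 bp), and 43.2% of the H3K27me3 peaks had H3K4me3 within 10 kb. In the shifts the share was 19.97%.

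**Figure D4:**
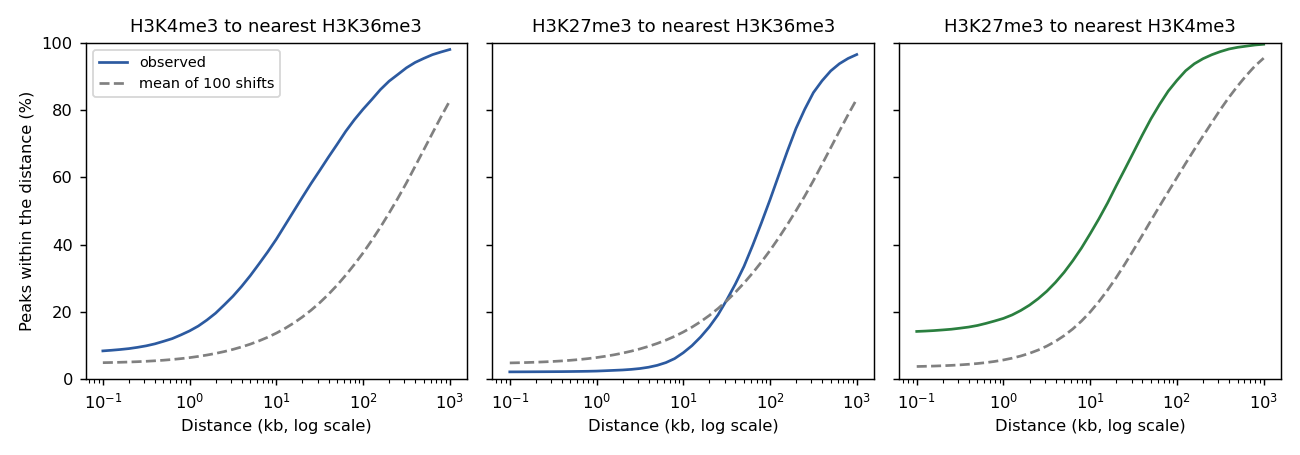
Share of peaks of young ASCs (y axis, %) that have the nearest peak of another mark within the distance on the x axis (kb, log scale). Solid lines are observed and dashed lines the mean of 100 circular shifts. H3K4me3 lies closer to H3K36me3 than the shifts at every distance (medians 15924 and 208368 bp), while H3K27me3 is below the shifts within 10 kb of H3K36me3 (7.84% and 14.0%) and above them at 100 kb (53.3% and 38.2%).

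To compare domains, peaks of 1 mark at most 3 kb apart were chained, and chains of at least 10 kb were kept. There were 2620 H3K36me3 domains, with a median length of 15266.5 bp and 40.7% of the H3K36me3 peaks inside, and 1330 H3K27me3 domains, with a median of 15430 bp and 26.1% of the H3K27me3 peaks. H3K4me3 flanked the H3K36me3 domains. A peak of H3K4me3 lay within 5 kb of 1 end in 1063 domains (40.6%, 38.7% to 42.5%, shift mean 434.5) and of both ends in 522 (19.9%, 18.4% to 21.5%, shift mean 96.6), so 60.5% (58.6% to 62.4%) had H3K4me3 at an end, against 20.3% in the shifts. The inner part, more than 5 kb from either end, held H3K4me3 in 258 domains, near the shift mean of 252.9, and 26 domains had it in the inner part without any at the ends (shift mean 91.9). H3K27me3 was found at 1 or both ends of 240 H3K36me3 domains (9.16%, shift mean 432.7) and in the inner part of 82 (shift mean 224.4).

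The H3K27me3 domains also had H3K4me3 at their ends, at 1 or both ends in 673 (50.6%, 47.9% to 53.3%, shifts 20.3%). They held H3K4me3 somewhere in 810 cases (60.9%, 58.3% to 63.5%, shift mean 243.3), and in the inner part in 563 (42.3%, shift mean 139.6), 4.03 times the shifts where the inner part of H3K36me3 domains was at 1.02 times. In any part, H3K36me3 domains held H3K4me3 in 663 cases (25.3%), 1.44 times the shift mean of 460.6, against 3.33 times for H3K27me3 domains. H3K36me3 lay in any part of 35 H3K27me3 domains (2.63%, 1.90% to 3.64%, shift mean 179.7) and in the inner part of 9 (shift mean 119.9). With scores of at least 100, H3K36me3 lay in 1.60% of the H3K27me3 domains and H3K27me3 at an end of 4.80% of the H3K36me3 domains.

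From PcG domain to transcribed body, 9 of the 1330 H3K27me3 domains overlapped an H3K36me3 domain, against a mean of 57.2 in the shifts. The median distance from an H3K27me3 domain to the nearest H3K36me3 domain was 194711 bp, against a mean of 709935 bp in the shifts. In 197 cases the gap between them was at most 50 kb (shift mean 107.2), and 137 of these gaps (69.5%, 62.8% to 75.5%) held an H3K4me3 peak, against 33.0% in the shifts. H3K4me3 thus lay in most of the gaps of this length between domains of the other marks.

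The longest domains were nearly free of the opposing mark. The longest H3K27me3 domain, chr11:96384865-96549021 (164 kb), was a chain of 74 peaks with 1 H3K4me3 peak and no H3K36me3. A second domain on the same chromosome, chr11:96095881-96245070 (149 kb), had 35 H3K27me3 peaks over 88.8% of its length and 17 H3K4me3 peaks inside, and no H3K36me3 peak. At chr4:136372343-136534941 (163 kb) 47 H3K27me3 peaks covered 79.6%, with 3 H3K4me3 peaks and 1 H3K36me3 peak. The longest H3K36me3 domain, chr2:51989698-52187673 (198 kb), was a chain of 59 peaks over 82.0% of its length, with 2 H3K4me3 peaks and no H3K27me3. At chr2:76644080-76793646 (150 kb) 29 H3K36me3 peaks covered 88.7% with no peak of the other marks. The QSC lists held no peak of any mark in either of these chromosome 2 regions. The third, chr4:147826054-147957645 (132 kb), had 42 H3K36me3 peaks in ASCs and 29 in QSCs, with 2 H3K4me3 peaks in each.

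Of the 104876 pairs of neighbouring intervals, 13142 set an interval with H3K36me3 alone beside one with H3K4me3 alone, 2.25 times the shift mean of 5835. H3K36me3 alone stood beside H3K27me3 alone in 1741 pairs, 0.356 times the mean of 4894.

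The X chromosome differed from the autosomes in all 3 lists and most in H3K36me3. The 19 autosomes held 11.4 to 27.2 H3K36me3 peaks per Mb with a median of 16.7, and X held 0.804 per Mb, 0.0481 times that median. H3K27me3 had 2.89 peaks per Mb on X against a median of 14.2, and H3K4me3 had 4.21 against 13.6. The QSC list of H3K36me3 had 1.04 per Mb on X against 8.94 (0.116 times). That of H3K27me3 had 0.570 against 4.71 (0.121 times) and that of H3K4me3 had 4.11 against 10.1 (0.405 times). In QSCs, H3K36me3 and H3K27me3 were thus nearly equally sparse on X. Of the 1219 merged intervals on X, 604 (49.5%) had H3K4me3 alone, against 20.1% to 28.0% on the autosomes, and 129 (10.6%) had H3K36me3 alone, against 34.6% to 46.6%. X held 5 intervals with H3K4me3 and H3K36me3 and none with H3K27me3 and H3K36me3 or with all 3 marks. The mice were male. What sets these densities was not tested. Chromosome 11 had the highest density of each mark, at 21.3 peaks per Mb for H3K4me3, 25.7 for H3K27me3 and 27.2 for H3K36me3.

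**Figure D5:**
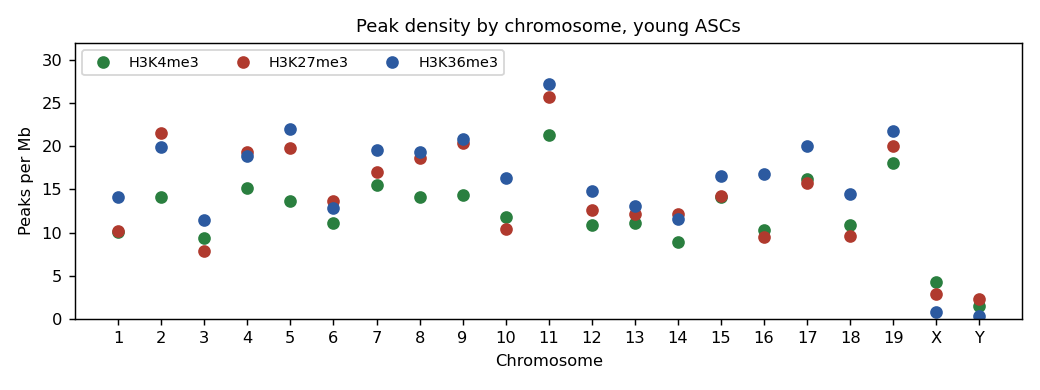
Peaks per Mb (y axis) of each mark on each chromosome in young ASCs, with the largest peak position in any list as the chromosome's length. H3K36me3 lies between 11.4 and 27.2 on the autosomes and at 0.804 on X, and chromosome 11 is highest for all 3 marks.

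Set beside the ASCs, the 49781 merged intervals of young QSCs were divided differently, with lists of 24701 H3K4me3, 11658 H3K27me3 and 20399 H3K36me3 peaks whose depth is also unknown. H3K4me3 alone made up 37.3% of the QSC intervals and H3K27me3 alone 16.8%. H3K4me3 with H3K36me3 made up 5.17% of the QSC intervals against 1.91% of the ASC intervals, and all 3 marks 0.986% (491 intervals) against 0.232%. Overlap with H3K36me3 was at 12.9% of the QSC H3K4me3 peaks, 5.59 times the shift mean, and at 4.71% of the QSC H3K27me3 peaks, 1.85 times the mean, where the ASC ratios were 1.64 and 0.463. The QSC H3K4me3 peaks on H3K36me3 were covered over a median of 95.6% of their length, against 56.6% in ASCs. This QSC overlap was most frequent in weak H3K4me3 peaks. It was at 22.0% of those with a score of 50 to 100, 5.69% of those of 1000 to 3100 and 10.9% of those at the cap. The shift means were 1.84%, 2.58% and 2.99%. Against a shift of 100 kb the ratios for H3K4me3 on H3K36me3 were 2.08 in QSCs and 0.650 in ASCs, and those for H3K27me3 on H3K36me3 were 0.951 and 0.278, so the QSC ratio of 1.85 also turns with the distance of the shift. The 2 states had 1 library each per mark, so library and state cannot be told apart.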

How the data were processed

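ChIP-seq peak lists of H3K4me3, H3K27me3 and H3K36me3 in young ASCs were used, 1 library per mark, with the young QSC lists beside them. The authors aligned reads with Bowtie to mm9 (submitters' processing notes) and called peaks per library against input, and deposited each peak's position with its MACS score. Versions and read numbers are not given in the sources used here, so depth is unknown. Samples were grouped from the labels. Members, lists and regions were chosen with earlier results of these data known.

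Overlaps of at least 1 bp, merged intervals, distances, chained domains and 100 equally spaced circular shifts per chromosome (circle from 0 to the largest position in any list, smallest step 0.607 to 1.95 Mb, and for combinations H3K36me3 moved by double the offset of H3K27me3) were computed in Python 3.11.15 (numpy 2.4.6, pandas 2.3.3), Wilson 95% intervals with scipy 1.17.1 and figures with matplotlib 3.10.9. The functions were tested on simulated data (3000 planted combinations recovered) and gave the same numbers as bedtools 2.31.1 in 3 checks. With 1 library per mark there was no test. Regions were named by a rule: the 3 widest intervals of each combination of 2 or 3 marks, the 3 longest H3K27me3 and H3K36me3 domains and the 3 widest H3K4me3 peaks. Alternatives were a MACS score of 100 or more (p-value 1e-10), equal numbers of top-scoring peaks, joining of peaks under 1 kb apart, sharing of 50% of the shorter peak, another circle and chaining at 1 or 10 kb. Shifts of 100 kb, and the score of at least 100 for other values, were added after seeing the data. The gene table given for this work is of GRCm38, so gene positions, gene names and sequences were not used. The input libraries were not analysed here, and the old QSC lists were used only for the largest positions.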

Additional observations from a re-analysis of the deposited data

How the results depend on the processing

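No paired analysis was possible because each mark had 1 library per cell state and no result came from a test. Without replicates, a value is described as moved when it left the main counting interval, and the 3 ratios to the shifts stayed on the same side of 1 under the alternatives other than shorter shifts. With a shift of 100 kb, H3K4me3 on H3K36me3 reversed to 0.650 times the shifts, H3K4me3 on H3K27me3 moved to 2.47 and H3K27me3 on H3K36me3 to 0.278. At the other shift distances tried, H3K4me3 on H3K36me3 was below 1 from 0.5 to 500 kb, and H3K27me3 on H3K36me3 was above 1 from 1 to 5 kb. The cause was not tested.

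With scores of at least 100 the merged intervals numbered 59495. Intervals with 1 mark made up 91.2%, H3K4me3 with H3K27me3 6.46%, H3K27me3 with H3K36me3 0.284% and all 3 marks 0.153%. The ratios moved to 7.18 for H3K4me3 on H3K27me3 and 0.416 for H3K27me3 on H3K36me3. The median distances moved to 24578 bp from H3K4me3 to H3K36me3, 101870 bp from H3K27me3 to H3K36me3 and 11627 bp from H3K27me3 to H3K4me3, and the share of H3K36me3 domains with H3K4me3 at an end to 57.3%.

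With equal numbers of top-scoring peaks the shares were 92.2% for 1 mark, 5.23% for H3K4me3 with H3K27me3 and 0.411% for H3K27me3 with H3K36me3. The ratio of H3K4me3 on H3K27me3 was 4.88 and the distances 20520.5, 96647 and 12830 bp in the same order. With peaks less than 1 kb apart joined the shares were 87.9% for 1 mark, 6.74% for H3K4me3 with H3K27me3, 4.20% for H3K4me3 with H3K36me3, 0.590% for H3K27me3 with H3K36me3 and 0.558% for all 3, and the ratios 3.40, 2.24 and 0.372. With 50% of the shorter peak shared they were 93.5%, 4.42%, 1.34% and, for all 3, 0.204%, with ratios of 5.77, 1.53 and 0.607. A circle from the first to the last peak gave 4.39 for H3K4me3 on H3K27me3. The unknown depth limits all counts and widths of peaks.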
